A study of Mus musculus with 12 samples.

Results

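The expression of 10 genes of the Notch pathway is described in mouse embryonic dorsal cortex of wild-type embryos and of embryos with Ash2l deleted: the receptors Notch1, Notch2 and Notch3, the ligands Dll1, Dll3, Jag1 and Jag2, the target genes Hes1 and Hes5, and the E3 ligase gene Dtx4. They were chosen by name as 10 of the 27179 genes counted, and all 10 passed the filter on low counts in every comparison. The tissue was dorsal cortex of C57BL/6 embryos in 4 groups of 3 libraries: wild type (WT) at E14.5, conditional knockout (cKO) at E14.5, WT at E16.5 and cKO at E16.5. In the cKO, Ash2l, a core subunit of the COMPASS complexes that methylate histone H3 at lysine K4, was deleted with D6-Cre, whose promoter is active in the dorsal telencephalon, so cells from elsewhere keep the gene. No source used here gives the alleles of the WT embryos. The labels do not say whether 1 library is 1 embryo, so p-values measure the spread between libraries, which may in part be technical. At E16.5 each group held libraries of both sexes, and so of more than 1 embryo. Libraries are named A, B and C within each group, in the order of the first number in their titles.

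Notch receptors are single-pass membrane proteins that bind Delta and Jagged ligands on neighbouring cells. Binding leads to cleavage of the receptor, and the freed intracellular domain enters the nucleus and joins RBPJ and Mastermind proteins to switch on targets such as Hes1 and Hes5. In the embryonic cortex these bHLH repressors hold down proneural genes and keep radial glia as progenitors, while cells on the way to becoming neurons present the ligands.

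Ash2l itself was at 118 to 143 CPM in the WT and 47.0 to 60.7 CPM in the cKO libraries over both ages, with no overlap. CPM is the count of a gene scaled by the size of its library, here after TMM normalisation over all 12 libraries. The log2 fold change of Ash2l was -1.28 ± 0.12 (SE) at E14.5 and -1.20 ± 0.07 at E16.5 (edgeR adjusted p = 0.0124 and 8.193e-04). Library totals ran from 14318147 to 24719047 counts. Library cKO A at E14.5 stood apart: its summed meningeal fibroblast markers were 350 CPM against 12.8 to 47.6 in the other 5 E14.5 libraries, its endothelial markers 219.6 against 90.0 to 137, and its pan-neuronal markers 2190 against 3425 to 5121. Library WT B at E14.5 had the highest sum of ventral telencephalon markers, 325 CPM against 24.0 to 133 in the other 5 of that age. Choroid plexus markers reached 492 CPM in WT A at E14.5 and 637 CPM in WT C at E16.5, against 9.61 to 61.6 in the other 10 libraries. No marker of these neighbouring tissues was called in either comparison of cKO with WT, which does not show equal levels. Log2 fold changes at E14.5 were 0.97 to 3.15 for tested meningeal markers and -0.18 to 0.55 for endothelial markers. They were -2.32 to -0.46 for ventral and -2.76 to -0.65 for choroid plexus markers. In the same order they were -0.69 to -0.11, -0.39 to 0.71, -0.88 to 0.10 and -3.61 to -0.68 at E16.5. By Xist and Y-linked genes, all 3 WT libraries at E14.5 were male and all 3 cKO libraries female, so genotype and sex cannot be told apart at that age. At E16.5 WT A and cKO C were female. For E14.5 several values are also given without WT B and cKO A. Fits of that age without WT A are given only within ranges over libraries left out. At E16.5 the calls are also given without each library in turn.

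The stretch before the start of Hes5 holds letters of the motif known for RBPJ, and it is shown here because Hes5 was the 1 gene of the 10 called higher in the cKO. Jag2, the gene of the 10 with the lowest fitted value at E16.5, is shown beside it as a promoter of another make-up. Each line holds the 250 bases before the annotated start, 5′ to 3′ in the direction of the gene, from RefSeq (GRCm38.p6). Hes5 is at chr4:154960673-154960922 (+ strand) and Jag2 at chr12:112929496-112929745 (- strand). Capitals mark TGGGAA, the core of the RBPJ motif, on either strand.
Hes5: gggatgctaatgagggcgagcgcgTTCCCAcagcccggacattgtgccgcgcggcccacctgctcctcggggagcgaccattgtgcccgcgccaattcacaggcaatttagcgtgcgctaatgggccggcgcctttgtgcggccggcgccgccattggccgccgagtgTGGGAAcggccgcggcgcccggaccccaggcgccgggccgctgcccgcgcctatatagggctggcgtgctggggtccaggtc
Jag2: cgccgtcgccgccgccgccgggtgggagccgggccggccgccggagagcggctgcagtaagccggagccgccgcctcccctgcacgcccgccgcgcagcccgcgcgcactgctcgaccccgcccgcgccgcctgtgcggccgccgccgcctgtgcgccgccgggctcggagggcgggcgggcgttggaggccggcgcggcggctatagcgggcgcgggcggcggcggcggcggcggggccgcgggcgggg
The Hes5 window held the core 2 times, once on each strand, starting 226 and 82 bases before the start. Of all 32851 promoter windows of this length, 21.6% held TGGGAA on either strand at least once and 2.77% at least 2 times. Both Hes5 matches extended to GTGGGAA, which 0.161% of windows held at least 2 times. The Jag2 window held no TGGGAA. It was 87.2% G and C with 54 CpG dinucleotides, a number reached by 0.0152% of windows, against a median of 6 over all windows. The Hes5 window held 32 CpG. RefSeq windows were matched for 8 of the 10 genes, in 9 windows, and TGGGAA was found in that of Hes5 alone. Hes1 and Dtx4 were not matched. The N-box CACNAG, the letters bound by Hes proteins, was found on either strand once each in the windows of Notch1 and Notch2 and 2 times in that of Notch3, and in 36.7% of all windows at least once. A match of letters is a description and not a measured site.

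At E16.5, 3 of the 10 genes changed in the cKO: Hes5 rose, and Jag2 and Dtx4 fell. Of all 14865 genes tested at that age 15.9% were called, 5.98% higher and 9.88% lower (edgeR's quasi-likelihood test, Benjamini-Hochberg adjusted p under 0.05). At E14.5, 0 of the 10 were called against 2.01% of 14788 genes (1.66% lower), while 2 (Jag2 and Dll3, both lower) had an unadjusted p under 0.05, as 20.2% of all genes did, and DESeq2 called 1, Jag2, and 8.64% of all genes. The median log2 fold change of the 10 was -0.02 at E14.5 and 0.09 at E16.5, beside 0.03 and 0.02 over all genes tested. The cKO libraries lay wholly to 1 side of the WT libraries for 2 of the 10 genes at E14.5 and 3 of the 10 at E16.5, beside 26.8% and 37.5% of all genes tested. Both at E14.5, Jag2 and Dll3, were below, as were 14.8% of all genes.

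At E16.5 deviations of same-numbered WT and cKO libraries correlated weakly, at 0.113 to 0.281, beside 0.107 at most for unlike numbers. The title numbers were therefore also fitted as a block, though what they stand for is not known. With that block 5 of the 10 genes were called, Notch2, Hes1 and Hes5 higher and Jag2 and Dtx4 lower, while 32.2% of all genes were called, 14.3% higher and 17.9% lower. The count also varied when 1 library was left out. In such fits the effect of that library and of having fewer libraries cannot be told apart. Without cKO A it was 6 of 10, 4 higher and 2 lower, beside 19% of all genes. It was 1 of 10, Jag2, without WT A, WT B or cKO B in turn, where 7.45%, 6.5% and 6.59% of all genes were called. It was 2 of 10, Jag2 and Dtx4, without WT C (10.9% of all genes) or cKO C (12.2%), and also with embryo sex as a term (10.9%).

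**Figure D1:**
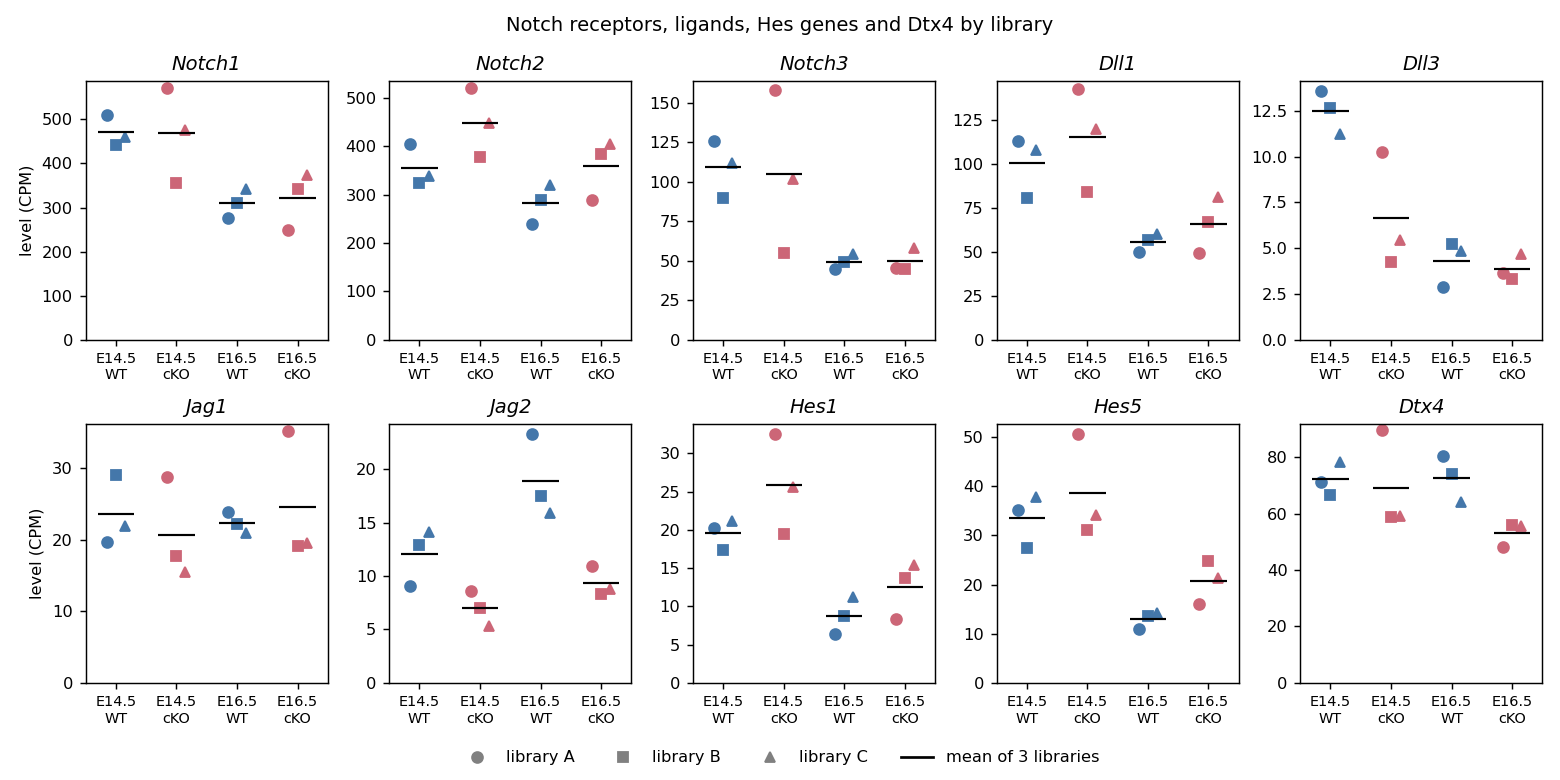
Level in CPM (vertical axes, from 0) of the 10 genes in each of the 12 libraries, by group; symbols mark libraries A, B and C, and bars are means of 3. Jag2 and Dtx4 are lower and Hes5 higher in every cKO library than in every WT library at E16.5, and E14.5 cKO A is the highest cKO library of its age for all 10 genes.

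Among the receptors, none of Notch1, Notch2 and Notch3 was called in the cKO at either age with all libraries and no block. Notch1 (chr2:26457902-26503822, 34 exons), the main receptor of cortical progenitors, was at 510.5, 442 and 460.3 CPM in WT A, B and C at E14.5 and at 571, 357 and 477 CPM in the cKO. At E16.5 it was at 277, 309.9 and 343 CPM in WT and 249, 341 and 374 CPM in the cKO. The cKO libraries spread around the WT libraries at both ages. Its log2 fold change was 0.00 ± 0.18 (SE) at E14.5 and 0.05 ± 0.15 at E16.5 (adjusted p = 0.991 and 0.869).

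Notch2 (chr3:98013538-98150367, 34 exons), a receptor also present in radial glia, was at 406, 324 and 338 CPM in WT and 521, 377 and 448 CPM in the cKO at E14.5. At E16.5 its levels were 239, 289 and 319 CPM in WT and 289, 385 and 406 CPM in the cKO. The groups overlapped at both ages. At E16.5 each cKO library was above the WT library of the same number, with log2 ratios from 0.28 to 0.41. The fitted log2 fold change was 0.35 ± 0.15 at E14.5 (adjusted p = 0.254) and 0.34 ± 0.15 at E16.5 (adjusted p = 0.155), and with the block at E16.5 it was 0.34 with an adjusted p of 4.148e-04. It was also called at E16.5 without cKO A and with no block, at 0.48 (adjusted p = 0.0247). Without WT B and cKO A the E14.5 value was 0.15 (adjusted p = 0.583).

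Notch3 (chr17:32120893-32166852, 33 exons), which is also strong in the mural cells of vessels, was at 126, 89.4 and 112 CPM in WT and 158, 55.0 and 101 CPM in the cKO at E14.5. The cKO range was the wider, with cKO A above and cKO B below all WT libraries. At E16.5 the levels were 44.6, 49.0 and 54.1 CPM in WT and 45.5, 44.8 and 58.1 CPM in the cKO. Notch3 had a log2 fold change of -0.04 ± 0.35 at E14.5 and -0.00 ± 0.12 at E16.5 (adjusted p = 0.962 and 0.996). Summed pericyte and mural markers were 107 CPM in cKO A and 55.5 CPM in both other cKO libraries at E14.5. In E14.5 WT A, B and C they were 55.1, 94.1 and 68.3 CPM, in the reverse order of Notch3. In E16.5 cKO A, B and C they were 114, 85.25 and 68.4 CPM, with Notch3 highest in C. Their part in the spread of Notch3 was not tested.

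Among the ligands, Jag2 was the 1 gene of the 10 called in every setting tried at E16.5. Jag2 (chr12:112908590-112929495, 26 exons), a Jagged ligand, was at 23.3, 17.5 and 15.9 CPM in WT at E16.5 and at 10.96, 8.30 and 8.79 CPM in the cKO. These levels rest on 301 to 439 counts in a WT library and 133 to 206 counts in a cKO library. The highest cKO library was below the lowest WT library. Mean levels were 18.9 ± 3.9 CPM (SD, n = 3) in WT and 9.35 ± 1.42 CPM in the cKO, with a log2 fold change of -1.02 ± 0.18 (SE, edgeR adjusted p = 0.00916). The call held in all 14 alternatives fitted at E16.5, with log2 fold changes from -1.15 to -0.85 and adjusted p from 1.271e-05 to 0.0488. Without WT C, the E16.5 library with choroid plexus markers, it was -1.12 (adjusted p = 0.0148).

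At E14.5 Jag2 was at 9.10, 12.9 and 14.1 CPM in WT and 8.62, 6.97 and 5.30 CPM in the cKO. The groups did not overlap, with the lowest WT library at 9.10 CPM and the highest cKO library at 8.62 CPM. In the fit Jag2 was at -0.78 ± 0.24 on the log2 scale with an adjusted p of 0.143, and -0.94 with an adjusted p of 0.0844 without WT B and cKO A.

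Dll3 (chr7:28293555-28301785, 9 exons), a Delta-like protein that acts inside the cell on Notch signalling and does not activate receptors on neighbours, was at 13.6, 12.7 and 11.3 CPM in WT and 10.2, 4.25 and 5.42 CPM in the cKO at E14.5. Every cKO library was below every WT library, with cKO A nearest to them. The log2 fold change was -0.89 ± 0.32 and was not called (edgeR adjusted p = 0.180). Without WT B and cKO A it was -1.35 and called (adjusted p = 0.0154), where 4.15% of all genes were called and 3.51% lower, and without cKO A alone it was -1.36 (adjusted p = 0.0213). At E16.5 the levels were 2.87, 5.23 and 4.83 CPM in WT and 3.62, 3.32 and 4.69 CPM in the cKO. The groups overlapped, and the log2 fold change was -0.16 ± 0.27 (adjusted p = 0.723). The E16.5 levels rest on 54 to 94 counts in each library, the fewest of the 10 genes.

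Dll1 (chr17:15367354-15375823, 11 exons), the main Delta ligand of newborn neurons and intermediate progenitors, was at 113, 80.5 and 108 CPM in WT and 143, 84.1 and 119.8 CPM in the cKO at E14.5. At E16.5 it was at 50.2, 56.7 and 60.2 CPM in WT and 49.2, 66.9 and 81.2 CPM in the cKO. The groups overlapped at both ages. The log2 fold change was 0.22 ± 0.22 at E14.5 (adjusted p = 0.617) and 0.23 ± 0.17 at E16.5 (adjusted p = 0.389). The E14.5 value was -0.11 without WT B and cKO A, so its sign rested on those libraries, and at E16.5 it was 0.40 and called without cKO A (adjusted p = 0.0336).

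Jag1 (chr2:137081451-137116520, 26 exons), a Jagged ligand also made by vessel walls, was at 19.8, 29.1 and 21.9 CPM in WT and 28.8, 17.7 and 15.5 CPM in the cKO at E14.5. At E16.5 the WT libraries were at 23.9, 22.1 and 20.9 CPM and the cKO libraries at 35.2, 19.1 and 19.5 CPM. In both cKO groups libraries B and C were below all WT libraries. Library A was above all WT libraries at E16.5 and above WT A and C at E14.5. Jag1 had a log2 fold change of -0.18 ± 0.26 at E14.5 and 0.14 ± 0.23 at E16.5 (adjusted p = 0.746 and 0.730), and without cKO A the E16.5 value was -0.22. Summed endothelial markers were highest in library A of each cKO group, at 219.6 CPM at E14.5 and 146 CPM at E16.5, and their part in the Jag1 levels was not tested.

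**Figure D2:**
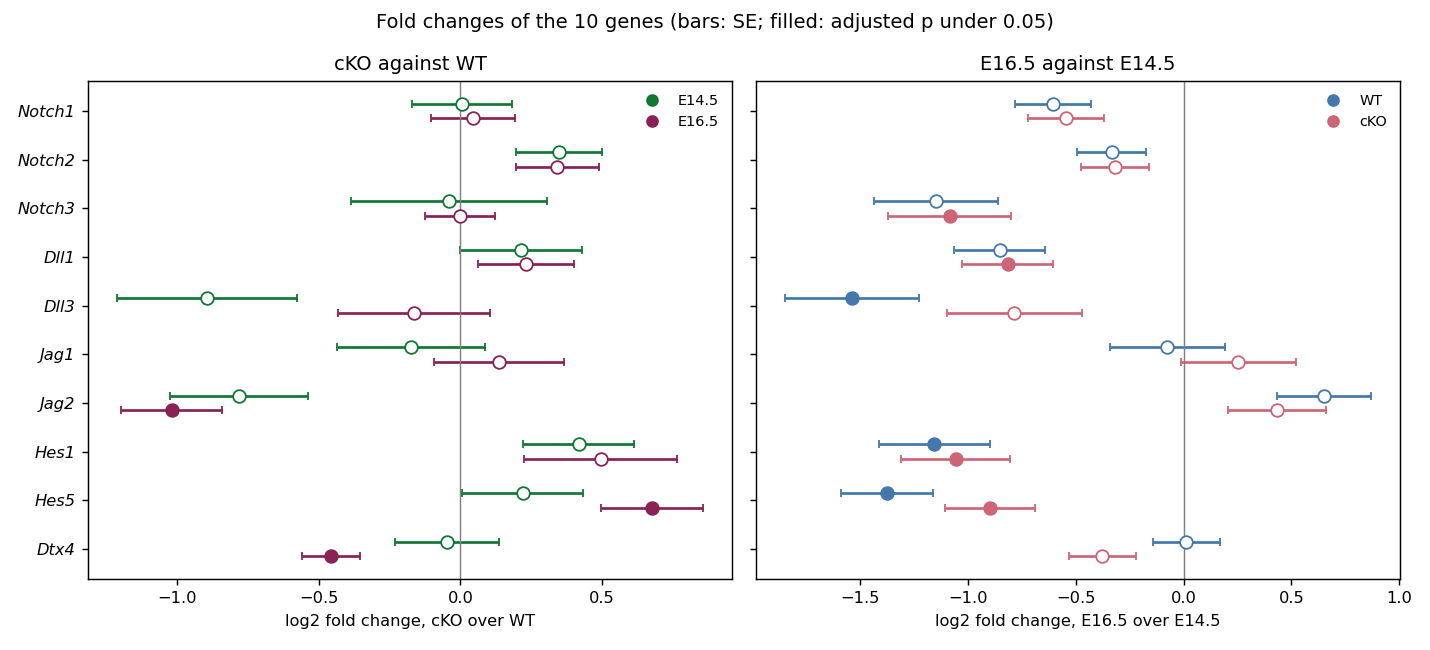
Log2 fold change ± SE (horizontal axes) of each gene for cKO over WT at each age (left) and for E16.5 over E14.5 in each genotype (right); filled points have an adjusted p under 0.05. Jag2, Hes5 and Dtx4 are filled at E16.5 on the left, at -1.02, 0.68 and -0.46.

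Of the target genes, Hes5 (chr4:154960923-154962371, 3 exons), the bHLH repressor whose promoter is printed above, was at 10.9, 13.6 and 14.3 CPM in WT at E16.5 and at 16.1, 24.9 and 21.4 CPM in the cKO. The lowest cKO library was above the highest WT library. Each cKO library thus also exceeded the WT library of its own number, by 0.55, 0.87 and 0.58 on the log2 scale. Mean levels were 12.9 ± 1.8 CPM (SD, n = 3) in WT and 20.8 ± 4.4 CPM in the cKO, with a log2 fold change of 0.68 ± 0.18 (SE, edgeR adjusted p = 0.0412). The size moved between 0.52 and 0.83 over the 14 alternatives, and 6 of them kept the call. It was lost without WT A (0.57, adjusted p = 0.123), WT B (0.71, 0.110), WT C (0.76, 0.0718), cKO B (0.52, 0.144) or cKO C (0.66, 0.0840), and with embryo sex as a term (adjusted p = 0.0694). In the fit of 12 libraries the adjusted p was 0.0577, and 0.0760 with sex as a term.

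At E14.5 Hes5 was at 35.2, 27.5 and 37.8 CPM in WT and 50.7, 31.2 and 34.1 CPM in the cKO. Only cKO A was above the WT range. The log2 fold change was 0.22 ± 0.21 (adjusted p = 0.605), and -0.16 without WT B and cKO A.

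Hes1 (chr16:30065357-30067796, 4 exons), the second bHLH repressor of this pair, was at 6.43, 8.72 and 11.2 CPM in WT and 8.35, 13.6 and 15.5 CPM in the cKO at E16.5. The groups overlapped, but every cKO library was above the WT library of its number, by 0.38, 0.65 and 0.47 on the log2 scale. Fitted without the block, Hes1 was at 0.50 ± 0.27 on the log2 scale (edgeR adjusted p = 0.253) and with the block at 0.49 (adjusted p = 0.0123). Without cKO A and with no block it was 0.72 (adjusted p = 0.0499). At E14.5 the levels were 20.2, 17.4 and 21.1 CPM in WT and 32.5, 19.5 and 25.7 CPM in the cKO. The log2 fold change there was 0.42 ± 0.20 (adjusted p = 0.287), and 0.14 without WT B and cKO A.

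Dtx4 (chr19:12466336-12501996, 9 exons), a Deltex family E3 ubiquitin ligase that acts on Notch receptors, was at 80.3, 73.9 and 64.2 CPM in WT and 48.2, 55.9 and 55.6 CPM in the cKO at E16.5. All cKO libraries were below all WT libraries. Mean levels were 72.8 ± 8.1 CPM (SD, n = 3) in WT and 53.2 ± 4.4 CPM in the cKO, with a log2 fold change of -0.46 ± 0.10 (SE, edgeR adjusted p = 0.0220). The call was kept in 9 of 14 alternatives. It was lost without WT A (-0.39, adjusted p = 0.0742), WT B (-0.45, 0.0872) or cKO B (-0.50, 0.0647), and in both fits of 12 libraries, where the adjusted p was 0.0804, and 0.0996 with sex as a term. At E14.5 the levels were 71.4, 66.6 and 78.3 CPM in WT and 89.6, 58.7 and 59.0 CPM in the cKO, with a log2 fold change of -0.05 ± 0.18 (adjusted p = 0.909). There cKO A was above and cKO B and C below all WT libraries.

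**Figure D3:**
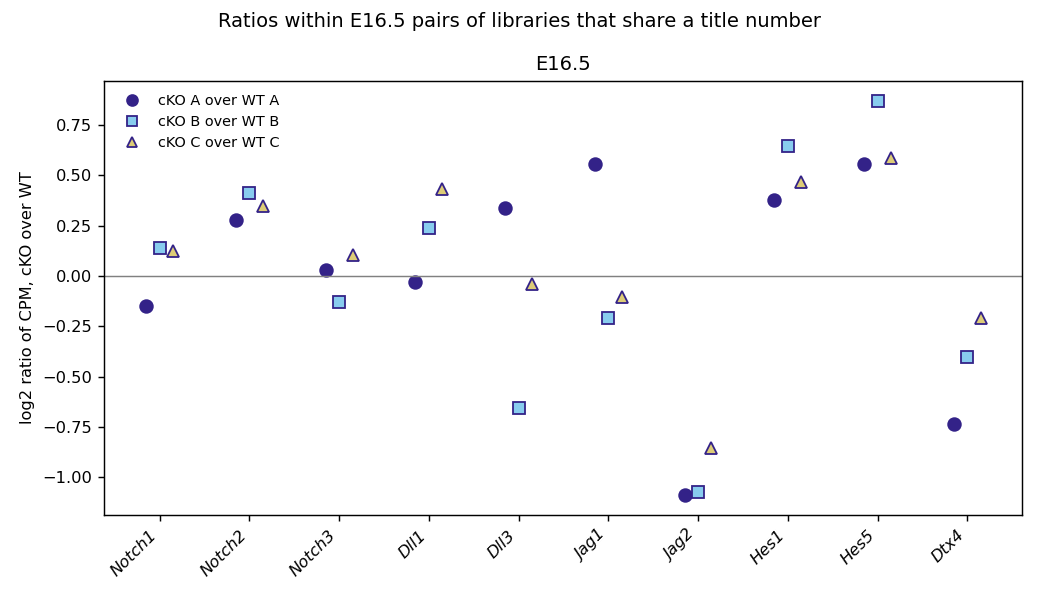
Log2 ratio of CPM, cKO over WT (vertical axis), within pairs of E16.5 libraries that share a title number, for each gene; symbols mark the pairs. Notch2, Hes1 and Hes5 are above 0 and Jag2 and Dtx4 below 0 in all 3 pairs. For Hes5, Jag2 and Dtx4 this follows from groups that do not overlap.

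Within groups the genes moved with the library as well. In the E14.5 cKO, library A had the highest level of all 10 genes and library B the lowest of 8, every one but Jag1 and Jag2. In the E16.5 WT, library A was the lowest for 7 genes, the 3 receptors, both Dll genes and both Hes genes, and the highest for the other 3, Jag1, Jag2 and Dtx4. In the E16.5 cKO, library A was the lowest for 6 genes and library C the highest for 6. Summed levels of the 10 genes ran from 1102 to 1324 CPM in WT and 1011 to 1614 CPM in the cKO at E14.5, and from 758 to 908 CPM and 755.5 to 1044 CPM at E16.5.

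The genes differ in which cells make them, and markers moved beside them. Of 10 pan-neuronal markers 7 fell in the cKO at E16.5, beside 15.9% of all genes called, 5.98% higher and 9.88% lower. Their sum was 5345 to 5647 CPM in WT and 3862 to 4441 CPM in the cKO. Of 11 radial glia markers 2 rose, Hopx by 0.82 ± 0.15 on the log2 scale (edgeR adjusted p = 0.00976) and Nes by 0.46 ± 0.13 (0.0486), and 1 fell, Ptprz1, at -0.37 ± 0.08 (0.0231). The radial glia sum was 2820 to 3003 CPM in WT and 2812 to 3162 CPM in the cKO. At E14.5 1 of 10 neuronal markers, Nefm, was called lower and 1 of 11 radial glia markers, Hopx, higher, beside 2.01% of all genes. These marker counts were not tried with the block or on fewer libraries. In bulk RNA, fewer cells of a type and less RNA in each cell cannot be told apart, and the part of these markers in the levels of Hes5, Jag2 and Dtx4 was not tested.

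Levels of different genes were compared per kilobase of exon. In E14.5 WT the order of mean CPM per kb was Notch1 (49.6), Notch2 (33.9), Dll1 (29.3), Hes5 (26.3), Notch3 (13.7), Hes1 (13.5), Dtx4 (12.5), Dll3 (5.78), Jag1 (4.29) and Jag2 (2.97). Gaps between neighbours exceeded the range of the libraries after Notch1, after Hes5, after Dtx4 and after Jag1, and elsewhere the ranges overlapped. In E16.5 WT Dtx4 (12.6) stood above Hes5 (10.2) with overlapping ranges, both below Dll1 (16.2). Jag2 (4.66) stood above Jag1 (4.06) with overlapping ranges, and Dll3 (1.99) came last. In the E16.5 cKO Notch2 (34.3) and Notch1 (33.9) overlapped, Hes5 (16.3) stood above Dtx4 (9.22) with no overlap, and Jag2 (2.31) was below Jag1 (4.48) with no overlap. In the E14.5 cKO the order began with Notch1 (49.4) and Notch2 (42.7), whose ranges overlapped, and ended with Jag1 (3.76), Dll3 (3.07) and Jag2 (1.72).

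Between the ages Hes1 and Hes5 fell in both genotypes. In WT 3 of the 10 fell between E14.5 and E16.5, Dll3, Hes1 and Hes5, beside 2.15% of 15338 genes called, 1.39% lower. Hes5 went from a mean of 33.5 ± 5.3 CPM (SD, n = 3) to 12.9 ± 1.8 CPM, a log2 fold change of -1.37 ± 0.21 (SE, edgeR adjusted p = 0.0218). Dll3 went from 12.5 ± 1.2 to 4.31 ± 1.26 CPM, at -1.54 ± 0.31 (adjusted p = 0.0372). Hes1 went from 19.6 ± 1.9 to 8.78 ± 2.38 CPM, at -1.16 ± 0.26 (adjusted p = 0.0450). Just short of the threshold, Notch3 was at -1.15 ± 0.29 (0.0536), Dll1 at -0.85 ± 0.21 (0.0528) and Notch1 at -0.60 ± 0.18 (0.0692). The E16.5 WT libraries lay below all E14.5 WT libraries for 7 of the 10 genes, beside 18.3% of all genes, and above them for Jag2 alone, beside 17% (35.3% to either side). Jag2 was at 0.65 ± 0.22 (adjusted p = 0.0931). Jag1 and Dtx4 overlapped, at -0.08 ± 0.27 and 0.01 ± 0.15 (adjusted p = 0.877 and 0.965).

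In the cKO 4 of the 10 fell with age, Notch3, Dll1, Hes1 and Hes5, beside 7.62% of all genes called, 3.71% lower. The log2 fold changes were -1.09 ± 0.29 for Notch3 (edgeR adjusted p = 0.0460), -0.82 ± 0.21 for Dll1 (0.0446), -1.06 ± 0.25 for Hes1 (0.0392) and -0.90 ± 0.21 for Hes5 (0.0368). Notch1 was at -0.54 ± 0.18 (0.0631), Dll3 at -0.78 ± 0.31 (0.108), Dtx4 at -0.38 ± 0.16 (0.115), Notch2 at -0.32 ± 0.16 (0.181), Jag1 at 0.25 ± 0.27 (0.527) and Jag2 at 0.43 ± 0.23 (0.201). The E16.5 cKO libraries lay below all E14.5 cKO libraries for 4 genes, Dll1, Hes1, Hes5 and Dtx4, beside 14.9% of all genes (33.7% to either side). The median of the 10 was -0.73 in WT and -0.66 in the cKO, beside -0.01 and 0.02 over all genes. These counts varied when 1 library was left out, where again that library and the smaller number of libraries cannot be told apart. In WT the count was 0 without WT A or C at E14.5 or WT A or B at E16.5, and 1 without WT C at E16.5. In those fits 0.00640% to 0.386% of all genes were called. Without WT B at E14.5 it was 5, all lower, beside 14.2% of all genes (7.13% higher and 7.06% lower). In the cKO it was 0 without cKO A or C at E14.5 or cKO A or B at E16.5, and 5 without cKO C at E16.5, where 11.4% of all genes were called. In the fits with a count of 0, 0.238% to 0.448% of all genes were called. Without cKO B at E14.5 it was 7, all lower, beside 23.6% of all genes (11.5% lower). DESeq2 called 7 genes in WT, 6 lower and Jag2 higher, beside 13.1% of all genes, and 5 in the cKO, all lower, beside 20.6%. The 2 ages come from separate count tables, and a batch that goes with age cannot be told apart from age. The mix of sexes also differed between the ages in each genotype, and the comparisons of ages were not fitted with a sex term.

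The difference of the cKO effect between the ages was tested directly. None of the 10 genes passed (0 of 15338 genes in all, 0% by edgeR and 0 by DESeq2; 318 genes and 0 of the 10 had an unadjusted p under 0.05). The values farthest from 0 were 0.75 ± 0.44 for Dll3, 0.48 ± 0.30 for Hes5 and -0.39 ± 0.22 for Dtx4 (unadjusted p = 0.112, 0.132 and 0.0997). So the calls at E16.5 for Hes5 and Dtx4 and their absence at E14.5 were not shown to differ. For Jag2 the difference was -0.22 ± 0.31 (unadjusted p = 0.4995).

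Of 54 other pathway genes in 6 lists, 50 were tested. At E16.5 3 rose and 4 fell in the cKO, with a median log2 fold change of 0.05, beside 15.9% of all genes called. With the block 20 of 50 were called, 11 higher and 9 lower, all 7 of the first count among them, beside 32.2% of all genes. Leaving out 1 library gave from 3 calls without cKO B (6.59% of all genes) to 11 without cKO A (19%), with Neurl1b, Dtx1 and Adam17 called each time. At E14.5 1 of 50 was called, Neurl1b, beside 2.01% of all genes, and 3 were called without WT B and cKO A (Neurl1b, Dtx1 and Dner, all lower), beside 4.15% of all genes. Between the ages 2 of 50 fell in WT, Maml3 among them at -0.57 ± 0.11 (edgeR adjusted p = 0.0320), beside 2.15% of all genes, and 0 were called in the cKO, beside 7.62%. The cKO effect differed between ages for 0 of 50.

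The ubiquitylation and trafficking list held 4 of those 7 calls at E16.5, with 1 of 12 genes higher and 3 lower. Of all genes tested 5.98% were called higher and 9.88% lower. Neurl1b, an E3 ligase that acts on Notch ligands, was at 65.6, 57.1 and 50.1 CPM in WT and 27.7, 26.5 and 25.04 CPM in the cKO, a log2 fold change of -1.13 ± 0.11 (edgeR adjusted p = 0.00186). At E14.5 it was at 35.4, 50.9 and 36.2 CPM in WT and 17.3, 21.5 and 19.4 CPM in the cKO, at -1.06 ± 0.17 (adjusted p = 0.0333). The groups did not overlap at either age. Dtx1, a Deltex relative of Dtx4, was at 94.4, 78.7 and 81.1 CPM in WT and 56.9, 43.5 and 39.3 CPM in the cKO at E16.5, at -0.87 ± 0.14 (adjusted p = 0.00711), and its E14.5 value was -1.07 ± 0.25 (adjusted p = 0.0762). Dtx3l, another Deltex gene, was at -0.84 ± 0.20 at E16.5 (adjusted p = 0.0275) and -0.54 ± 0.36 at E14.5 (0.444). Numb, which turns Notch receptors toward endocytosis, went the other way, at 0.52 ± 0.11 at E16.5 (adjusted p = 0.0175), with every cKO library above every WT library. The call of Numb was lost without WT A, WT B or cKO B, and that of Dtx3l without WT A, WT C or cKO B.

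In the other lists single genes were called at E16.5, beside 15.9% of all genes. Dlk2, a Delta-like protein without the usual receptor-binding domain, was at 6.48, 3.60 and 2.67 CPM in WT and 1.33, 0.934 and 1.12 CPM in the cKO, at -1.91 ± 0.37 (edgeR adjusted p = 0.0140), the only one of 5 other receptors and ligands to be called. Notch4 and Dll4, typical of endothelium, were not called, with means of 9.24 ± 0.89 and 6.08 ± 1.37 CPM (SD, n = 3) in E16.5 WT. Adam17, a protease of the cleavage list, rose by 0.44 ± 0.07 on the log2 scale (adjusted p = 0.00809), 1 of 10 in that list. Maml3, a Mastermind coactivator, rose by 0.30 ± 0.08 (adjusted p = 0.0355), 1 of 12 in the list of nuclear partners. Without cKO B the call of Dlk2 was lost (adjusted p = 0.0678), and of the fits without 1 library Maml3 was called only in that without cKO A (0.0486). The E14.5 values were -2.12 ± 0.64 for Dlk2, 0.44 ± 0.11 for Adam17, 0.40 ± 0.12 for Numb and -0.00 ± 0.14 for Maml3, and none was called (adjusted p = 0.133, 0.0885, 0.142 and 0.997).

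**Figure D4:**
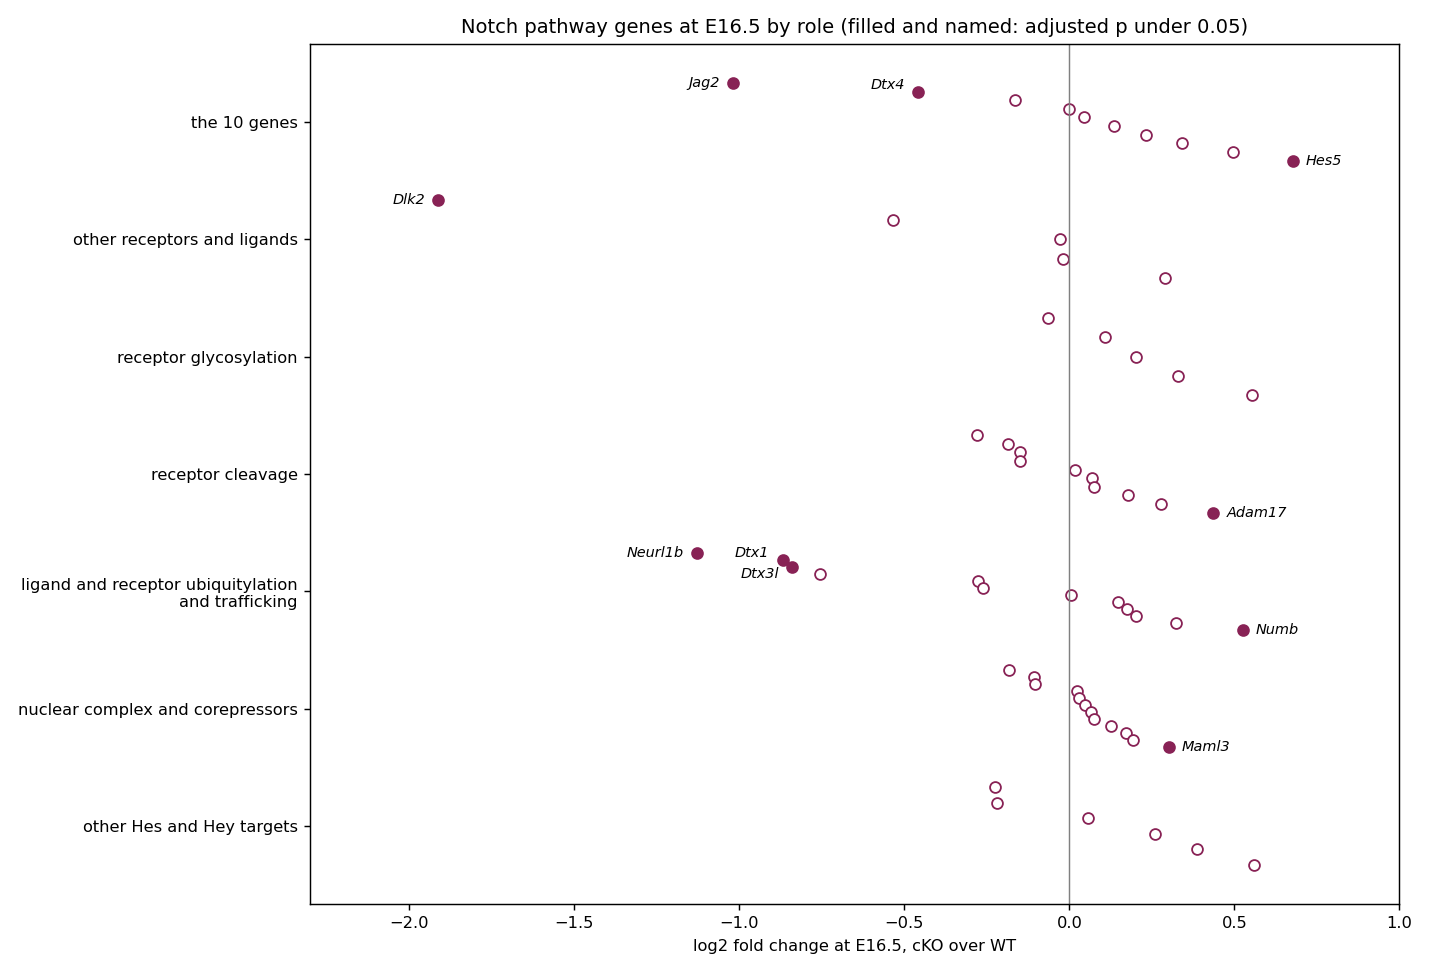
Log2 fold change of cKO over WT at E16.5 (horizontal axis) for the 10 genes and the 50 tested genes of 6 further lists, by role; filled, named points have an adjusted p under 0.05. The called points lie between -1.91 (Dlk2) and 0.68 (Hes5).

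None of 5 glycosylation genes and none of 6 tested genes of the Hes and Hey list were called at E16.5, beside 15.9% of all genes. Rfng and Pofut1, which modify the receptors' sugars, were at 0.33 ± 0.12 and 0.20 ± 0.07 (edgeR adjusted p = 0.0932 and 0.0976). With the block both were called (0.0369 and 0.0277), as were 3 of 5 glycosylation genes, beside 32.2% of all genes. Hey1, a bHLH target related to the Hes genes, was at 12.8, 19.6 and 23.5 CPM in WT and 18.7, 29.9 and 34.3 CPM in the cKO, at 0.56 ± 0.27 (adjusted p = 0.199), and was called with the block at 0.56 (9.249e-04). Bhlhe22, a bHLH gene of cortical neurons, was at -0.22 ± 0.10 (0.191), and with the block at -0.23 (0.00681). The E14.5 values of Rfng, Pofut1, Hey1 and Bhlhe22 were 0.17 ± 0.11, 0.25 ± 0.11, 0.35 ± 0.25 and -0.05 ± 0.22, none of them called. Hes2, Hes3, Hes7 and Helt had too few counts to be tested. Of 8 proneural factors, the genes that Hes proteins hold down, 1 fell at E16.5, Neurod6, at -0.29 ± 0.06 (edgeR adjusted p = 0.0167), beside 15.9% of all genes. With the block 4 of 8 were called, beside 32.2% of all genes: Neurog1 at -0.84 (0.0361), Neurod2 at -0.19 (0.0208) and Neurod6 at -0.29 (0.00136) lower, and Neurod1 higher at 0.21 (0.0486). At E14.5 0 of 8 were called, beside 2.01%.

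The genes most like 4 of the 10 across the 12 libraries were ranked by Pearson's r of log2 CPM among 12544 genes, as a description, since the libraries share age and genotype. For Hes1 they were Sox9, a transcription factor of radial glia (r = 0.989), Spc24, a kinetochore gene (0.984), and Hey1 (0.983). For Hes5 they were the replication histone chaperone gene Asf1b (0.975), the DNA repair gene Brca1 (0.975) and Pidd1 (0.970). Dll1 was most like Otx1, a homeobox gene of cortical progenitors (0.993), Erf (0.992) and Tead2 (0.992). Dtx4 had lower values, with the collagen gene Col5a2 (0.921), Hmcn1 (0.916) and Podxl (0.901).

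In the authors' deposited table for E16.5, made with DESeq2 and here turned to cKO over WT, Jag2 was at -0.91, Dtx4 at -0.44 and Hes5 at 0.59 (adjusted p = 1.23e-05, 0.00293 and 0.00878), and no other of the 10 passed 0.05. In the authors' deposited table for E14.5 Jag2 was at -0.64 with an adjusted p of 0.0490 and Dll3 at -0.68 with 0.0695, so Jag2 was the 1 gene of the 10 under 0.05 there.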

How the data were processed

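Total RNA of 12 libraries was sequenced. Per the submitters' processing notes, the authors aligned reads with STAR 2.5.2b to mm10. The deposited counts are whole read pairs per gene from featureCounts 1.5.2 over RefSeq exons, on the reverse strand (setting 2), per the file headers, which also record that both ends had to align, that chimeric pairs were dropped and that 25 bases had to overlap. The authors also deposited log2 fold changes (WT over knockout, sign turned here) and p-values, which the submitters' processing notes tie to DESeq2 1.14.1. Their 12 columns of normalised library values were not used.

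Counts were tested by the quasi-likelihood F test of edgeR 4.0.16 with robust fitting, in R 4.3.3 with limma 3.58.1. Libraries were scaled by TMM, low genes were removed with filterByExpr, and p-values were adjusted across every tested gene (Benjamini-Hochberg) with a threshold of 0.05. Genotypes were compared in a separate fit of the 6 libraries of an age. Comparisons of ages used 1 fit of 12 libraries with 4 groups. Printed SE is the size of the log2 fold change over the square root of F. The fits were tested on simulated data with 200 changed genes. Likeness used log2(CPM + 0.5) for genes with a mean of at least 1 CPM.

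The members, the gene lists and the rule for named genes were chosen with earlier results of these data known. The rule names all 10 members, Ash2l, up to 4 called genes of each other pathway list by p at E16.5 or, where none was called, 2 genes as values, and the 3 genes most like each of Hes1, Hes5, Dll1 and Dtx4. Radial glia genes, proneural factors, Notch4, Dll4, Dner and the untested Hes genes were named after their values were seen. Alternatives were DESeq2 1.42.0, 2 other scalings, no count filter, each library left out, the pairing block, sex terms and a fit of 12 libraries. Precision rests on the spread between libraries as well as on counts. Counts are given above for Jag2 and Dll3 at E16.5. Jag2 at E14.5 had 100 to 306 counts in a library, and Hes1 at E16.5 had 121 to 263. Counts of the other pathway genes are not given, and Dlk2 had a mean of 1.13 CPM in the E16.5 cKO. The title numbers were taken to pair libraries at E16.5, where residual log CPM (prior count 2) of same-numbered libraries correlated at 0.281, 0.210 and 0.113. The highest value for unlike numbers at E16.5 was 0.107 (WT C with cKO B). At E14.5 the same-number values were 0.272, 0.304 and -0.00126, and there the numbers were not taken to pair libraries. Since 0.272 is within the E16.5 range and 0.304 above it, these correlations do not settle whether pairing differs between the ages.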

Additional observations from a re-analysis of the deposited data

How the results depend on the processing

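Jag2 at E16.5 kept its direction and its call in all 14 alternatives, from -1.15 to -0.85 on the log2 scale. Hes5 and Dtx4 kept their direction at E16.5 in all 14. The other calls depended on the setting, and the cause was not tested. Depth was lowest for Dll3 at E16.5, with 54 to 94 counts in a library.

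Counts over all genes are given as the percent of genes tested. Of all genes at E14.5 (2.01% called, 297 genes), DESeq2 called 8.64% (1278 genes), the replicate block by title number 8.65% (1279), sex as a term in the fit of 12 libraries 0.835% (128), the fit of 12 libraries 8.71% (1336) and the fit without WT B and cKO A 4.15% (621), and leaving out 1 library gave 0.0334% to 2.35%. That sex term is set by the E16.5 libraries alone and taken to be the same at E14.5. Genotype and sex at E14.5 stay confounded. Of the 10 genes at E14.5 (0 called), DESeq2, the block, the fit of 12 libraries and the fit without WT B and cKO A each called 1, and leaving out 1 library gave 0 to 1. Under the block at E14.5, where the numbers were not taken to pair the libraries, the 1 gene was Dll3, at -0.97 with an adjusted p of 0.0447. Of all genes at E16.5 (15.9%), the block called 32.2% (4790 genes) and sex as a term in the fit of 12 libraries 10.2% (1569). That fit without sex called 12.3%, and leaving out 1 library gave 6.50% to 19.0%. Of the 10 genes at E16.5 (3), the block called 5, sex as a term in the fit of 12 libraries 1 and that fit without sex 1, and leaving out 1 library gave 1 to 6. For the difference between ages (0 genes), the block called 1 gene (0.00652%), none of the 10. Between ages in WT (2.15%), DESeq2 called 13.1% (2005 genes), no filter 1.08% (230), and leaving out 1 library gave 0.00640% to 14.2%. Of the 10 genes in WT (3), DESeq2 called 7 and leaving out 1 library gave 0 to 5. Between ages in the cKO (7.62%), DESeq2 called 20.6% (3152 genes), no filter 2.51% (536), and leaving out 1 library gave 0.238% to 23.6%. Of the 10 genes in the cKO (4), no filter called 2 and leaving out 1 library gave 0 to 7. The block changed no other call of the 10 genes than those named here and in the results.

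Values that changed sign were all uncalled. In the E14.5 comparison Notch1 was -0.001 with RLE scaling and with DESeq2, -0.0212 with the block, -0.0693 with sex as a term, -0.0083 in the fit of 12 libraries, -0.2204 without WT B and cKO A, and -0.1792 to 0.1619 on leaving out 1 library. Without WT B and cKO A Dll1 was -0.1138 and Hes5 -0.1613. Leaving out 1 library at E14.5 gave -0.4776 to 0.2592 for Notch3, -0.5106 to 0.0036 for Jag1, -0.0421 to 0.3464 for Hes5 and -0.2964 to 0.061 for Dtx4. At E16.5 Notch3 was 0.0351 with library totals, 0.0037 with no filter and 0.0059 in the fit of 12 libraries, and leaving out 1 library gave -0.13 to 0.0815 for Notch3, -0.0758 to 0.1999 for Notch1 and -0.2151 to 0.29 for Jag1. For the difference between ages Notch2 was -0.0176 with RLE scaling and with DESeq2, -0.0324 with no filter and -0.0122 with sex as a term, and Dll1 was -0.0108 with no filter. Leaving out 1 library gave differences of -0.1346 to 0.2144 for Notch1, -0.1298 to 0.1276 for Notch2, -0.2777 to 0.4661 for Notch3, -0.1788 to 0.2021 for Dll1, -0.0437 to 0.6312 for Jag1 and -0.1049 to 0.3146 for Hes1. Between ages it gave -0.1886 to 0.1101 for Jag1 and -0.0587 to 0.0967 for Dtx4 in WT, and -0.111 to 0.5633 for Jag1 in the cKO. The sex term within E16.5 and the fits of other pathway genes and proneural factors on fewer libraries or with the block were chosen after seeing the data.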
